A study of Mus musculus with 9 samples.

Results

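The mRNAs described here are those of the tuberous sclerosis complex, of the small GTPase that it restrains, and of the mTOR complexes downstream. The 10 genes, Tsc1, Tsc2, Tbc1d7, Rheb, Mtor, Rptor, Rictor, Mlst8, Akt1s1, and Rps6kb1, were chosen by name from 54119 genes in the table, and the estimated counts of all annotated transcripts of a gene were summed. RNA-seq was performed on 9 libraries of total RNA from primary microglia of C57BL/6J mice, the resident macrophages of the brain. The groups were control siRNA, Chd8 siRNA, and Tsc2 siRNA, with 3 libraries each, and no group was left without an siRNA. Small interfering RNAs direct the degradation of mRNAs whose sequence they match. According to the methods, the cultures came from whole brains of E18 mice and were treated for 3 days. They name 1 culture from a distinct brain as a replicate, but the sample labels do not tie a library to a culture, so p-values measure the spread between these libraries. The results section of the study places LPS stimulation before sequencing, and the methods do not count the RNA-seq among the experiments done without LPS, whereas the sample labels of these libraries give no LPS. Knockdown was by siRNA in culture, and the labels give no deleted allele in any group.

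Tsc1, Tsc2, and Tbc1d7 form the TSC complex, in which Tsc2 is the GTPase-activating subunit, Tsc1 stabilizes Tsc2, and Tbc1d7 is the small accessory subunit. The complex switches off Rheb, which in its GTP-bound form activates mTOR complex 1 on the lysosome. mTOR complex 1 holds the kinase Mtor, the substrate-binding subunit Rptor, and Mlst8, with Akt1s1 (PRAS40) as an inhibitory subunit, and it phosphorylates the S6 kinase Rps6kb1. mTOR complex 2 shares Mtor and Mlst8 and is defined by Rictor, and it phosphorylates Akt. The comparison of Tsc2 siRNA with control siRNA asks how far the Tsc2 mRNA was lowered and whether the mRNAs of its partners differed, and the other knockdown lowered Chd8, which encodes a chromatin remodeler.

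Tsc2 is on chromosome 17 of GRCm38 (the assembly of mm10), from 24595816 to 24632630 on the minus strand, and is annotated with 22 transcripts in GENCODE release 21. Rptor is on chromosome 11 from 119602905 to 119899576 on the plus strand, with 12 transcripts. The results on single transcripts turned on a few exons, and their spliced sequences are shown because they separate some transcripts of a gene from others. Tsc2-205 and Tsc2-201 do not differ in them, and differences at the ends of transcripts are not shown. In the first 3 lines, capitals mark an exon and the lower-case letters are 15 bases of the exon on either side.
Tsc2 129-base exon, chr17:24606224-24606352, in Tsc2-217 and Tsc2-203: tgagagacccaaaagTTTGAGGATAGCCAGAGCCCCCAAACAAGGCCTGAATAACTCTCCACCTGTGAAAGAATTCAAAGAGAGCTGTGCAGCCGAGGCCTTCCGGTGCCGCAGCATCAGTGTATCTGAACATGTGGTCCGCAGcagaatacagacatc
Tsc2 69-base exon, chr17:24601389-24601457, in Tsc2-217: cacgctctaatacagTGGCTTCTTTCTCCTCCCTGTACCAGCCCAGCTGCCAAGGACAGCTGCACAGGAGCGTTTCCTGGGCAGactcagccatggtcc
Rptor 76-base exon, chr11:119811945-119812020, in Rptor-201 and not in Rptor-211: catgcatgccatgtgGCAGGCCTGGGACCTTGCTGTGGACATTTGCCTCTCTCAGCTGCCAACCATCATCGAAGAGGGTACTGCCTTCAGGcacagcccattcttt
The most abundant transcript, Tsc2-221, also differs from Tsc2-201 at the junction that skips the 129-base exon, where the downstream exon begins at either of a pair of acceptors. Capitals mark the bases that Tsc2-221 lacks, and 18 bases are shown on either side.
Tsc2-201 junction: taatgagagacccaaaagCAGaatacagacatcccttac
Tsc2-221 junction: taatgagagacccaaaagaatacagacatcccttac
The downstream exon was 165 bases long in Tsc2-201 and 162 bases in Tsc2-221. Both Tsc2 exons and the difference at the junction are multiples of 3 bases within the coding sequence, which spans 5223 bases in Tsc2-221, 5226 in Tsc2-201 and Tsc2-205, and 5424 in Tsc2-217. The Rptor exon is exon 10 of 34 and is not a multiple of 3, and without it the annotated coding sequence of Rptor-211 ends early, at 1161 bases against 4005 in Rptor-201.

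Total counts ranged from 16913005 to 33213477 per library, and a floor of 3 counts corresponded to 0.0903 to 0.177 CPM (counts per 1000000 counts of the library). The floor covers counting error only. Levels below are normalized CPM, that is CPM with library sizes scaled by the TMM factors of edgeR, unless stated otherwise. The levels per kilobase of the microglial markers Cx3cr1, P2ry12, Tmem119, Csf1r, Aif1, Itgam, and Trem2 summed to between 368 and 534. The 6 astrocyte markers summed to between 3.93 and 27.5, the 7 oligodendrocyte-lineage markers to between 4.09 and 11.3, the 5 neuronal markers to between 1.18 and 6.03, and the 4 markers of fibroblasts and endothelium to between 3.15 and 10.04, and their part in the results was not tested. Among these, Pdgfra and Cldn5 were below 0.1 normalized CPM per kilobase in every library. The summed astrocyte level was between 4.66 and 27.5 with control siRNA, 4.63 and 14.8 with Chd8 siRNA, and 3.93 and 17.1 with Tsc2 siRNA. As a check of the other knockdown, Chd8 was at 118, 97.5, and 93.6 CPM in control siRNA libraries 1 to 3, 86.8, 44.6, and 38.2 with Chd8 siRNA, and 119, 89.9, and 101 with Tsc2 siRNA. The Chd8 siRNA libraries were all below the control siRNA libraries, and library 1 was closest to them. Chd8 had a log2 fold change of −0.86 (SE 0.28, adjusted p = 1.00 in edgeR), which was not called, and of −0.93 with the replicate block, where it was called (adjusted p = 0.00781 in edgeR).

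All 10 genes were among the 16229 that passed the count filter. Calls required an FDR below 0.05 together with a 1.5-fold change in edgeR's quasi-likelihood test. None of the 10 genes was called for Tsc2 siRNA against control siRNA, where 0.0% of all genes were called. DESeq2's Wald test called 4 genes in that comparison, and at an unadjusted p under 0.05 edgeR found 420 genes (2.59%), of which 1 was among the 10. With the replicate number as a block, 63 genes were called (0.388%), again with none of the 10. For Chd8 siRNA against control siRNA, 0.0% of all genes were called in edgeR and 8 genes by DESeq2. At an unadjusted p under 0.05 there were 622 genes (3.83%), with none of the 10 among them, and the replicate block gave 86 called genes (0.53%), with none of the 10. For Tsc2 siRNA against Chd8 siRNA, 0.0% of all genes were called in edgeR, 2 genes by DESeq2, and 36 (0.222%) with the block, none of them among the 10. At an unadjusted p under 0.05, 503 genes (3.1%) were found there, 2 of them among the 10, namely Tsc2 and Rptor.

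**Figure D1:**
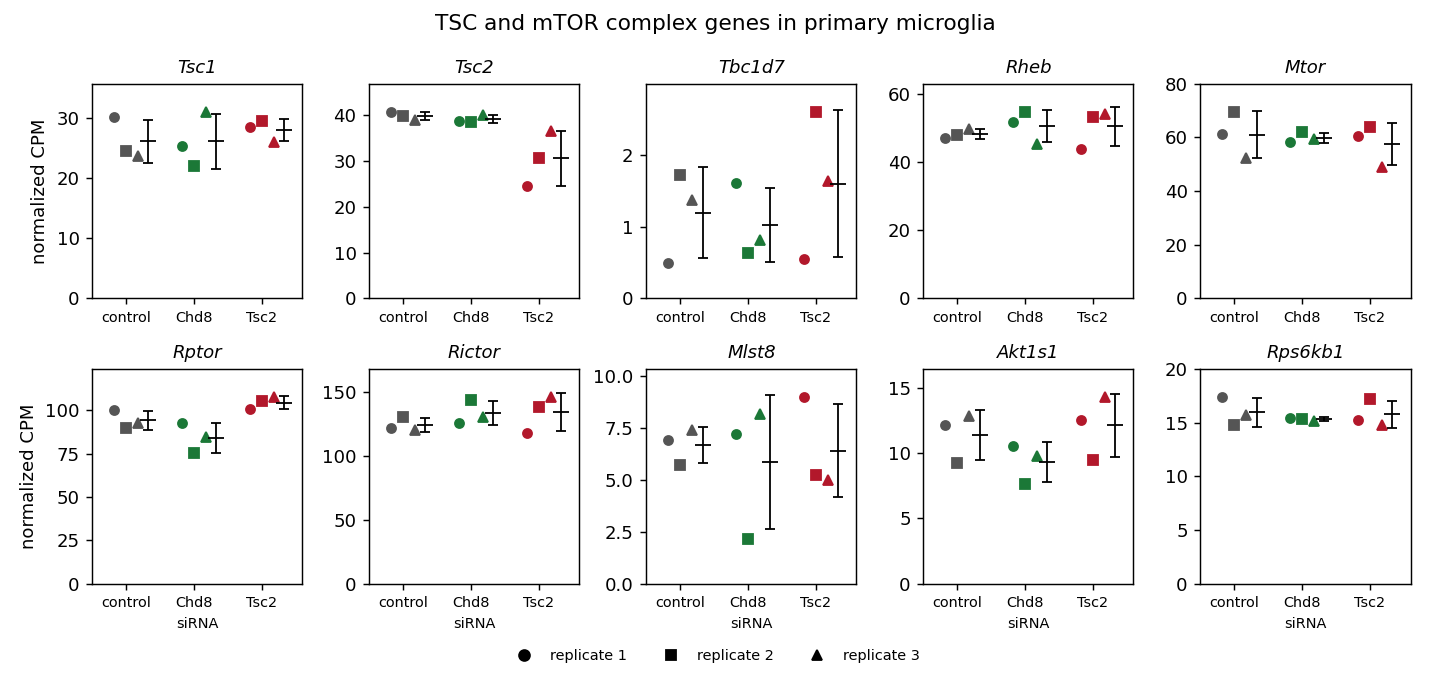
Normalized CPM (y axis, from 0, a scale for each gene) of the 10 genes by siRNA (x axis), with 1 point per library, the replicate number as the symbol, and the mean ± SD (n = 3) as a bar beside the points. The 3 Tsc2 siRNA libraries lie below all control siRNA libraries for Tsc2 and above them for Rptor, and the groups overlap for the other 8 genes.

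Tsc2 was the member with the lowest p in the comparison of Tsc2 siRNA with control siRNA. It was at 40.8, 39.9, and 38.9 CPM in control siRNA libraries 1 to 3, at 38.6, 38.5, and 40.1 with Chd8 siRNA, and at 24.6, 30.6, and 36.4 with Tsc2 siRNA. The Tsc2 siRNA libraries were all below the other 6 libraries, and they were spread from a level well below the rest in library 1 to one just below them in library 3. The mean was 30.5 CPM ± 5.95 (SD, n = 3) with Tsc2 siRNA against 39.8 CPM ± 0.942 (SD, n = 3) with control siRNA and 39.1 CPM ± 0.887 (SD, n = 3) with Chd8 siRNA. The log2 fold change was −0.38 (SE 0.15, 95% interval −0.72 to −0.04) with an unadjusted p of 0.0305 and an adjusted p of 1.00 in edgeR, so it did not pass the test over all genes. With the replicate block it was −0.39 (95% interval −0.66 to −0.13), with an adjusted p of 0.219. The two-sided exact permutation test gave p = 0.1, the smallest that 3 libraries against 3 allow. Without Tsc2 siRNA library 1 the log2 fold change was −0.25, and without library 3 it was −0.53. Against Chd8 siRNA, Tsc2 differed by −0.35 on the log2 scale (SE 0.15, adjusted p = 1.00 in edgeR). Chd8 siRNA differed from control siRNA by −0.03 (SE 0.15, 95% interval −0.37 to 0.31). In RNA of whole cultures, fewer cells that express a gene and less RNA per cell cannot be told apart.

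Among all genes, 8.13% had Tsc2 siRNA libraries that did not overlap with the control siRNA libraries in either direction. Of the 10 genes this held for Tsc2 and Rptor. Against Chd8 siRNA, it was again Tsc2 and Rptor, with 8.41% of all genes. Between Chd8 siRNA and control siRNA the groups overlapped for all 10 genes, where 9.07% of all genes did not overlap. Within all 3 replicate numbers, Tsc2 and Mtor were lower and Tbc1d7, Rptor, and Akt1s1 higher with Tsc2 siRNA than with control siRNA, beside 31.9% of all genes that went in one direction. With Chd8 siRNA, Rptor and Akt1s1 were lower and Rictor higher in all 3 numbers, beside 36.0% of all genes. With protein-coding transcripts alone, the log2 fold changes of Tbc1d7 and Akt1s1 with Tsc2 siRNA turned to −0.49 and −0.00044, and that of Rptor with Chd8 siRNA to 0.20.

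The other subunits of the TSC complex, Tsc1 and Tbc1d7, showed no difference that passed a test. Tsc1 (chromosome 2) was at 30.2, 24.5, and 23.6 CPM with control siRNA, 25.3, 22.1, and 31.0 with Chd8 siRNA, and 28.4, 29.5, and 26.1 with Tsc2 siRNA. The groups overlapped throughout. The log2 fold change of Tsc1 was 0.10 (SE 0.17, 95% interval −0.27 to 0.47) with Tsc2 siRNA and 0.00 (95% interval −0.37 to 0.37) with Chd8 siRNA, so that a change of 1.5-fold lay outside both intervals. Tbc1d7 (chromosome 13) was the lowest of the 10 genes, with 10 to 56 counts per library. It was at 0.490, 1.72, and 1.37 CPM with control siRNA, 1.61, 0.638, and 0.823 with Chd8 siRNA, and 0.555, 2.61, and 1.64 with Tsc2 siRNA. Libraries of 1 group differed by more than 2-fold. The interval of the Tsc2 siRNA difference ran from −1.07 to 1.92 on the log2 scale and included a 1.5-fold difference in either direction.

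Rheb, the direct target of the TSC complex, is on chromosome 5. It was at 47.1, 48.1, and 49.9 CPM with control siRNA, 51.7, 54.8, and 45.4 with Chd8 siRNA, and 44.0, 53.4, and 54.3 with Tsc2 siRNA. These ranges overlapped, and the log2 fold changes were 0.07 in both knockdowns (95% interval −0.23 to 0.36 in each).

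The shared catalytic subunit Mtor (chromosome 4) was at 61.2, 69.6, and 52.2 CPM with control siRNA, 58.2, 61.9, and 59.5 with Chd8 siRNA, and 60.3, 63.8, and 48.8 with Tsc2 siRNA. In both control and Tsc2 siRNA it was highest in library 2 and lowest in library 3. Its log2 fold change was −0.08 (95% interval −0.41 to 0.25) with Tsc2 siRNA and −0.03 (95% interval −0.35 to 0.30) with Chd8 siRNA. Mlst8, the other shared subunit, had only 34 to 215 counts per library. It was at 6.94, 5.73, and 7.42 CPM with control siRNA, 7.20, 2.17, and 8.19 with Chd8 siRNA, and 9.01, 5.21, and 5.01 with Tsc2 siRNA. Library 2 of Chd8 siRNA was the lowest and library 1 of Tsc2 siRNA the highest, within overlapping groups. The intervals of Mlst8 were wide, from −1.04 to 0.91 with Tsc2 siRNA and from −1.16 to 0.79 with Chd8 siRNA.

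Rptor, which recruits the substrates of mTOR complex 1, was at 100.3, 89.8, and 92.8 CPM with control siRNA, 92.5, 75.3, and 84.6 with Chd8 siRNA, and 100.6, 105.2, and 108 with Tsc2 siRNA. All Tsc2 siRNA libraries were above all control siRNA libraries, by 0.3 CPM at the nearest, and above all Chd8 siRNA libraries. The log2 fold change was 0.15 (SE 0.12, 95% interval −0.11 to 0.41) against control siRNA and 0.31 (SE 0.12, 95% interval 0.05 to 0.57) against Chd8 siRNA, where the unadjusted p was 0.023, the adjusted p was 1.00 in edgeR, and the adjusted p with the replicate block was 0.150. Rictor (chromosome 15), which defines mTOR complex 2, had the highest CPM of the 10 genes. It was at 122, 130.2, and 119.9 CPM with control siRNA, 126, 144, and 131 with Chd8 siRNA, and 117, 138, and 146 with Tsc2 siRNA, and the groups overlapped. Its log2 fold change was 0.11 (95% interval −0.16 to 0.38) with Tsc2 siRNA and 0.10 (95% interval −0.16 to 0.37) with Chd8 siRNA.

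Akt1s1 (chromosome 7) encodes a subunit that holds mTOR complex 1 back until it is phosphorylated. It was at 12.1, 9.24, and 12.9 CPM with control siRNA, 10.6, 7.65, and 9.83 with Chd8 siRNA, and 12.6, 9.53, and 14.3 with Tsc2 siRNA. In each group library 2 was the lowest. The log2 fold change was 0.09 (95% interval −0.41 to 0.59) with Tsc2 siRNA and −0.29 (95% interval −0.79 to 0.22) with Chd8 siRNA. Between Tsc2 siRNA and Chd8 siRNA it was 0.37 (95% interval −0.13 to 0.88), and with the replicate block 0.37 (95% interval 0.03 to 0.71) with an adjusted p of 0.415 in edgeR. Rps6kb1 (chromosome 11), the kinase that passes the signal on to ribosomal protein S6, was at 17.4, 14.8, and 15.7 CPM with control siRNA, 15.5, 15.4, and 15.1 with Chd8 siRNA, and 15.2, 17.2, and 14.8 with Tsc2 siRNA. Its groups overlapped as well, and its log2 fold change was −0.02 (95% interval −0.35 to 0.31) with Tsc2 siRNA and −0.06 (95% interval −0.39 to 0.27) with Chd8 siRNA.

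**Figure D2:**
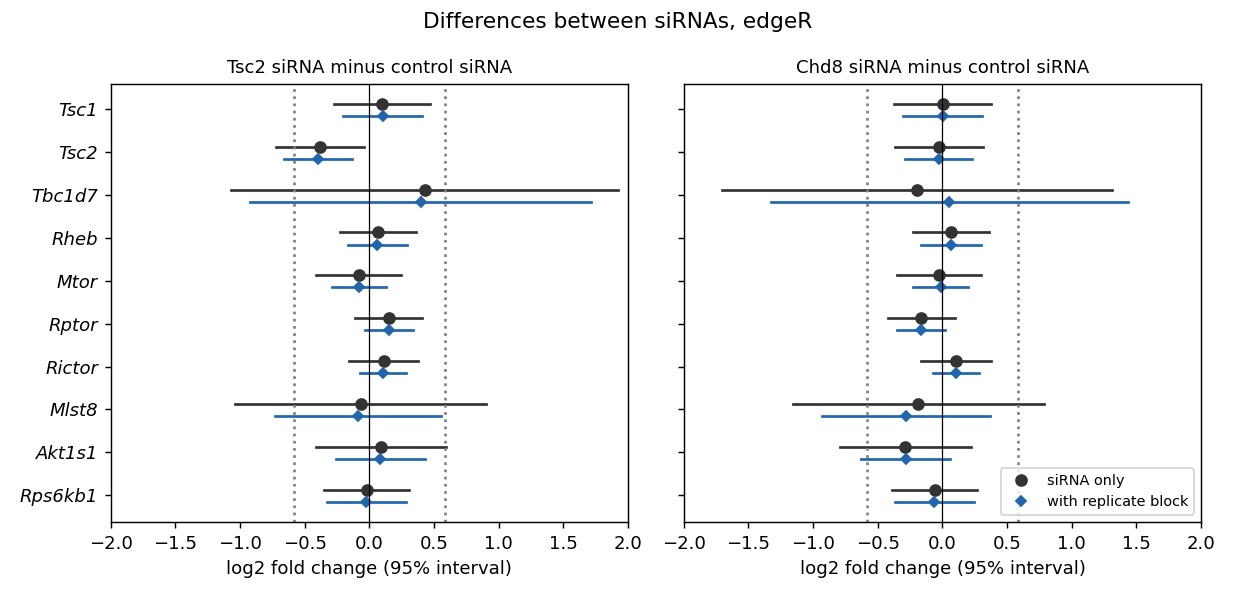
Log2 fold change (x axis) of the 10 genes (y axis) with Tsc2 siRNA (left) and Chd8 siRNA (right) against control siRNA, with 95% intervals from edgeR fitted with the siRNA alone (circles) and with the replicate block (diamonds). The dotted lines mark a fold change of 1.5 in either direction. Only the intervals of Tsc2 with Tsc2 siRNA exclude 0, and those of Tbc1d7, Mlst8, and Akt1s1 reach a dotted line without the block in both comparisons.

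Over the 10 genes, the median log2 fold change was 0.08 with Tsc2 siRNA and −0.04 with Chd8 siRNA, beside medians of −0.02 and −0.02 over all genes tested. The interval lay within a 1.5-fold change in either direction for 6 of the 10 genes with Tsc2 siRNA (Tsc1, Rheb, Mtor, Rptor, Rictor, and Rps6kb1) and for 7 with Chd8 siRNA, where Tsc2 joined them. For these genes a change of the size required for a call was therefore outside the interval of the data.

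Levels of different genes are compared per length, as normalized CPM per kilobase of transcript, summed over the transcripts of a gene. In control siRNA, Rheb was the highest at 27.3 ± 3.93 (SD, n = 3), followed by Rictor at 23.4 ± 2.22, Rptor at 18.7 ± 1.07, Tsc2 at 8.72 ± 0.475, Akt1s1 at 8.19 ± 1.84, Mtor at 8.15 ± 1.31, Rps6kb1 at 6.06 ± 0.346, Tsc1 at 4.67 ± 0.263, Mlst8 at 3.89 ± 1.02, and Tbc1d7 at 1.11 ± 0.752. The libraries of Rheb and Rictor overlapped, as did those of Tsc2 and Akt1s1, of Akt1s1 and Mtor, and of Tsc1 and Mlst8, and the other neighbors did not. This order depended on the transcripts counted. With protein-coding transcripts alone, a choice made after seeing the data, Rheb was at 20.4 ± 1.56 and Rictor at 10.23 ± 0.372 without overlap. Akt1s1 at 7.80 ± 1.57, Mtor at 7.61 ± 0.765, Tsc2 at 7.02 ± 0.410, and Rptor at 6.16 ± 0.924 then overlapped from each to the next. Tsc1 at 2.67 ± 0.394, Rps6kb1 at 2.08 ± 0.316, Mlst8 at 1.88 ± 0.624, and Tbc1d7 at 0.963 ± 0.789 did so as well, below a step of 2.31-fold from Rptor to Tsc1. The place of Rptor above Tsc2 and Mtor in control siRNA was thus lost without its other transcripts. Within the TSC complex, Tsc2 mRNA exceeded Tsc1 mRNA per length by 1.87-fold ± 0.145 (SD, n = 3) with control siRNA, 1.95-fold ± 0.385 with Chd8 siRNA, and 1.40-fold ± 0.372 with Tsc2 siRNA. In Tsc2 siRNA this ratio was 1.01, 1.46, and 1.74 in libraries 1 to 3, against 1.71, 1.91, and 1.99 with control siRNA. With protein-coding transcripts alone the ratio was 2.65 ± 0.316 with control siRNA, 3.01 ± 0.280 with Chd8 siRNA, and 1.96 ± 0.761 with Tsc2 siRNA. Within the mTOR complexes, the level of Rictor per length was 2.89-fold ± 0.221 that of Mtor with control siRNA, and 1.35-fold ± 0.0867 with protein-coding transcripts alone. That of Rptor was 2.34-fold ± 0.470 that of Mtor over all transcripts and 0.818-fold ± 0.166 with protein-coding transcripts alone, so its direction turned with control siRNA. With protein-coding transcripts alone it was 0.995-fold ± 0.0893 with Chd8 siRNA and 1.31-fold ± 0.214 with Tsc2 siRNA, where all 3 libraries were above 1. The protein-coding level of Rptor was 0.879-fold ± 0.127 that of Tsc2 with control siRNA, 1.01-fold ± 0.0970 with Chd8 siRNA, and 1.89-fold ± 0.381 with Tsc2 siRNA.

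Of the 22 Tsc2 transcripts, 5 held at least 2% of the Tsc2 counts each and 95.5% together, out of 7798 counts over the 9 libraries and 575 to 1245 per library. The other 17 transcripts held 4.54% together, 5 of them had no count in any library, and none exceeded 59 counts in a library. Tsc2-221, with 40 exons, held 58.8% of the counts. Tsc2-205 held 15.1%, Tsc2-201 with a longer 3′ end 9.36%, Tsc2-217 with both exons shown above 8.39%, and Tsc2-218, a shorter transcript without an annotated coding sequence, 3.85%. These counts are estimates by salmon, which divides reads that fit several transcripts among them, and how many reads did so was not examined. The 3′ end of Tsc2 shares 693 bases with Pkd1 on the opposite strand. Of these 5 transcripts, only Tsc2-205 and Tsc2-201 reach into the shared bases.

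**Figure D3:**
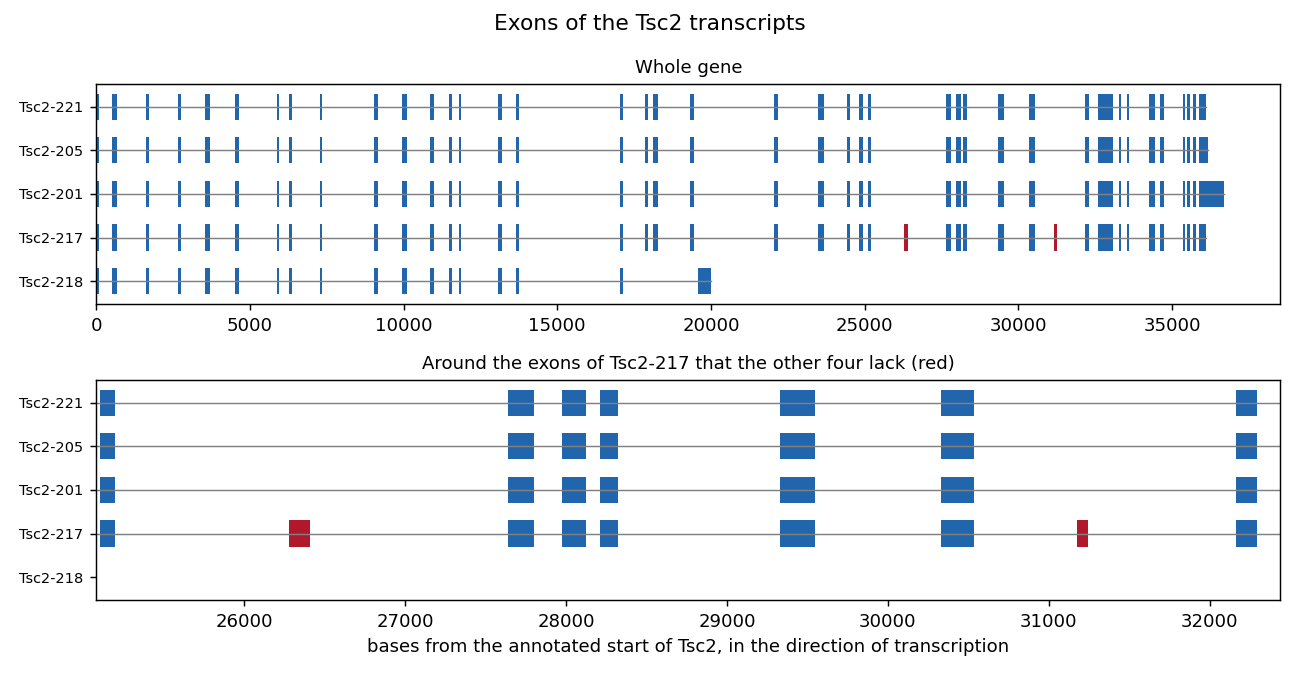
Exons (boxes) of the 5 Tsc2 transcripts with at least 2% of the Tsc2 counts, by distance in bases from the annotated start of the gene (x axis), for the whole gene (top) and enlarged around the exons of Tsc2-217 that the other 4 transcripts lack (red, bottom). Tsc2-221, Tsc2-205, and Tsc2-201 differ from one another mainly at the 3′ end, and Tsc2-218 ends before the enlarged region.

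Tsc2-221 was at 25.6, 18.6, and 25.1 CPM with control siRNA, 22.7, 24.5, and 23.2 with Chd8 siRNA, and 10.4, 12.7, and 26.2 with Tsc2 siRNA. Libraries 1 and 2 of Tsc2 siRNA were below the other 7 libraries, while library 3 was the highest of all 9. The log2 fold change against control siRNA was −0.49 (SE 0.33, 95% interval −1.25 to 0.26), and it was not called. For Tsc2-205 the levels were 1.32, 12.04, and 3.91 CPM with control siRNA, 7.83, 8.65, and 6.64 with Chd8 siRNA, and 1.73, 5.16, and 5.42 with Tsc2 siRNA. Tsc2-201 was listed at 0 in control siRNA library 3, Chd8 siRNA library 2, and Tsc2 siRNA library 3, and reached 9.78 CPM in control siRNA library 1. Tsc2-217 was at 1.10, 1.74, and 7.29 CPM with control siRNA, 2.16, 2.39, and 3.76 with Chd8 siRNA, and 3.33, 3.49, and 2.58 with Tsc2 siRNA. For these transcripts the spread within control siRNA exceeded the differences between groups. Tsc2-218 was between 0 and 2.78 CPM in all libraries. None of the 5 was called in either knockdown or had an unadjusted p under 0.05 with Tsc2 siRNA, where 2.83% of all 41633 transcripts tested had one.

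**Figure D4:**
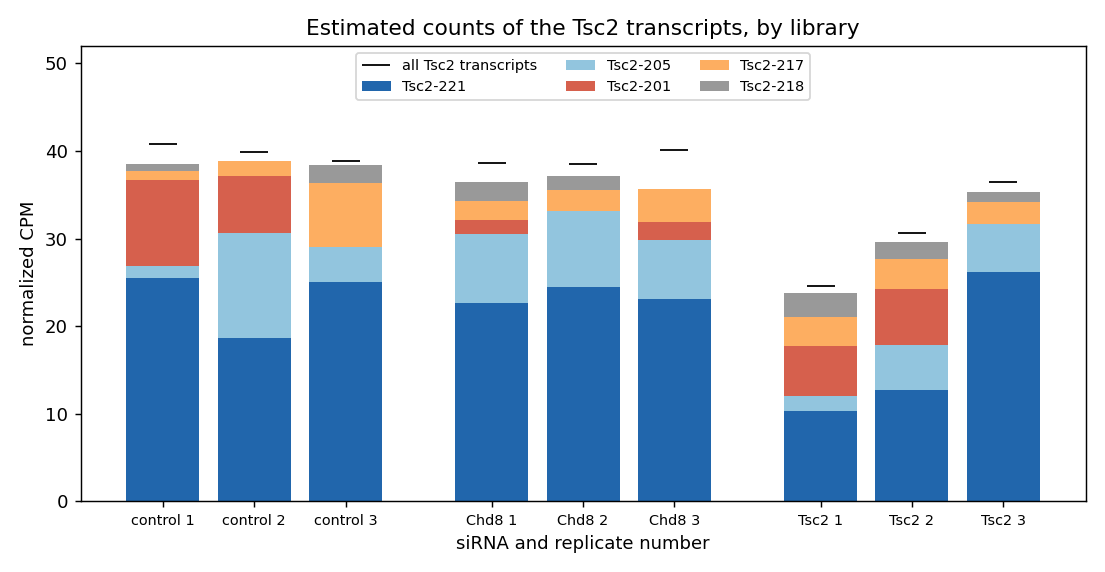
Normalized CPM (y axis) of the 5 Tsc2 transcripts with at least 2% of the Tsc2 counts, stacked, in each of the 9 libraries (x axis). A black line marks the gene-level CPM over all 22 transcripts. The line uses the library sizes of the gene fit and the bars those of the transcript fit. The gap between them is therefore not only the other transcripts. In Tsc2 siRNA, Tsc2-221 (dark blue) is at 10.4 and 12.7 in libraries 1 and 2 and at 26.2 in library 3.

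The share of Tsc2-221 in the Tsc2 counts was 64.3%, 46.3%, and 63.8% with control siRNA, 59.2%, 62.9%, and 56.9% with Chd8 siRNA, and 42.8%, 41.1%, and 71.9% with Tsc2 siRNA. The groups overlapped, and the mean difference between Tsc2 and control siRNA was −6.21 percentage points (two-sided exact permutation p = 0.8). Over the 5 transcripts and both knockdowns, 10 share differences were tested, the lowest p was 0.2 for Tsc2-218 with Tsc2 siRNA (exact permutation test), and all 10 adjusted p were 1.00. The share of counts on transcripts with the 129-base exon, among the transcripts that include or skip it, was 2.92%, 4.47%, and 20.1% with control siRNA, with Wilson 95% intervals of 2.05 to 4.14, 3.11 to 6.38, and 17.5 to 23.0. It was 6.29%, 6.62%, and 12.4% with Chd8 siRNA and 15.8%, 12.6%, and 7.53% with Tsc2 siRNA. Control siRNA library 3 had the highest share of all libraries, and libraries 1 and 2 the lowest. The shorter form at the acceptor pair made up 67.7%, 47.8%, and 69.1% with control siRNA, 66.1%, 68.0%, and 59.0% with Chd8 siRNA, and 49.2%, 45.8%, and 76.6% with Tsc2 siRNA, again with overlapping groups (exact permutation p = 0.9 for each knockdown). The intervals cover counting error only and leave out the assignment of reads among transcripts.

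The transcripts of Rptor are described because of values seen in these libraries, and no difference between the groups passed a test over all transcripts. Of its counts, 51.5% were on the protein-coding Rptor-201 and 29.9% on Rptor-211, which lacks the 76-base exon shown above and is annotated as a target of nonsense-mediated decay, the pathway that degrades mRNAs with an early stop codon. Rptor-201 was at 45.1, 37.3, and 34.9 CPM with control siRNA, 42.6, 47.5, and 48.9 with Chd8 siRNA, and 54.4, 57.9, and 66.4 with Tsc2 siRNA. The 3 Tsc2 siRNA libraries lay above all control and Chd8 siRNA libraries, whereas Chd8 and control siRNA overlapped. Rptor-211 was at 37.2, 39.5, and 38.3 CPM with control siRNA, 34.8, 20.7, and 15.8 with Chd8 siRNA, and 24.9, 26.3, and 21.03 with Tsc2 siRNA. Here every library of either knockdown was below every control siRNA library, with Chd8 siRNA library 1 nearest to them. Among all transcripts tested, 8.39% did not overlap between Tsc2 and control siRNA and 8.77% between Chd8 and control siRNA, in either direction.

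In Tsc2 siRNA against control siRNA, the log2 fold change was 0.61 (SE 0.15, unadjusted p = 0.00306) for Rptor-201 and −0.67 (SE 0.27, unadjusted p = 0.0353) for Rptor-211, and the adjusted p over all transcripts was 1.00 for both in edgeR. In Chd8 siRNA it was 0.24 (SE 0.15, unadjusted p = 0.137 in edgeR) for Rptor-201 and −0.69 (SE 0.27, unadjusted p = 0.0315 in edgeR) for Rptor-211, with adjusted p of 1.00. Neither transcript was called. Without Chd8 siRNA library 1 the difference of Rptor-211 with Chd8 siRNA was −1.07. This was the largest difference with 1 library left out, and other such fits gave smaller ones, with the range given in the last section. The share of counts on the 4 transcripts with the exon, among the 6 that include or skip it, was 57.8%, 51.6%, and 54.2% with control siRNA, 57.1%, 70.7%, and 77.3% with Chd8 siRNA, and 71.5%, 72.7%, and 77.6% with Tsc2 siRNA. The means were 54.5% ± 3.12, 68.4% ± 10.3, and 73.9% ± 3.26 (SD, n = 3 each). Tsc2 siRNA did not overlap with control siRNA (two-sided exact permutation p = 0.1, the smallest possible), and Chd8 siRNA did (exact permutation p = 0.2). With only protein-coding transcripts summed, the log2 fold change of Rptor was 0.58 with Tsc2 siRNA (unadjusted p = 0.00322, adjusted p = 1.00 in edgeR) and 0.20 with Chd8 siRNA, against 0.15 and −0.16 with all transcripts. Rptor-211 also begins 549 bases later and ends 169 bases further downstream than Rptor-201, so that reads outside the exon enter into these estimates.

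**Figure D5:**
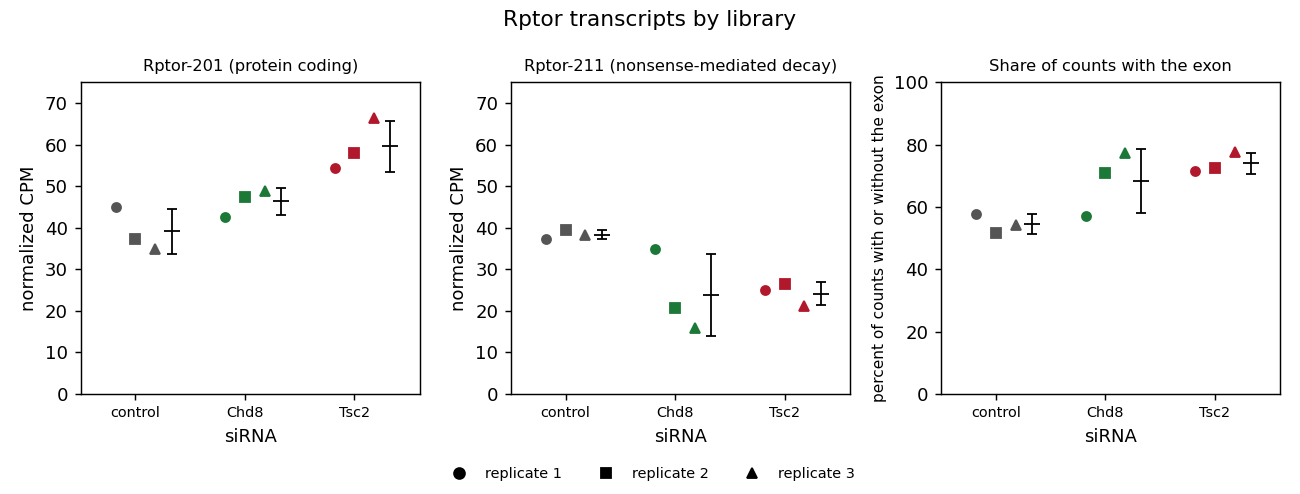
Normalized CPM (y axis) of Rptor-201 (left) and Rptor-211 (middle), and the percent of counts on transcripts that include the 76-base exon among the 6 Rptor transcripts that include or skip it (right), by siRNA (x axis), with 1 point per library, the replicate number as the symbol, and the mean ± SD (n = 3) beside the points. Rptor-211 is at 37.2 to 39.5 with control siRNA, 15.8 to 34.8 with Chd8 siRNA, and 21.03 to 26.3 with Tsc2 siRNA. Rptor-201 is highest with Tsc2 siRNA.

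The share of counts on protein-coding transcripts was read for the other members as well. It was 87.0% to 97.8% for Tsc2 over the 9 libraries, 63.3% to 80.2% for Tsc1, at least 64.0% for Mlst8, and at least 73.4% for Akt1s1. For Tbc1d7, with its few counts, these were 7 of 13, 18 of 28, and 32 of 32 counts with control siRNA, 42 of 48, 8 of 10, and 15 of 20 with Chd8 siRNA, and 7 of 13, 23 of 52, and 18 of 56 with Tsc2 siRNA. The mean share of Tbc1d7 was 72.7% ± 24.2 with control siRNA, 80.8% ± 6.29 with Chd8 siRNA, and 43.4% ± 10.9 with Tsc2 siRNA (SD, n = 3 each), and library 1 had the same share with Tsc2 and control siRNA. Mtor counts were 97.3% to 99.8% on protein-coding transcripts in every library, and Rictor counts 74.1% to 80.3%, the rest being transcripts with a retained intron. For Rheb the protein-coding share was 68.7% to 82.2% and for Rps6kb1 52.3% to 75.7%. With only protein-coding transcripts, the log2 fold change of Tsc2 with Tsc2 siRNA was −0.47 (unadjusted p = 0.0223, adjusted p = 1.00 in edgeR).

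Around the complexes, a list of 66 genes of mTOR signaling was examined, and 62 of them passed the count filter. None was called in any of the comparisons, with or without the replicate block. At an unadjusted p under 0.05 in edgeR there was 1 gene with Tsc2 siRNA and 2 with Chd8 siRNA, beside 2.59% and 3.83% of all genes. At this threshold the list held no larger share than the background in either. Of the 62 genes, 6 were higher and 1 lower with Tsc2 siRNA without overlap with control siRNA, beside 8.13% of all genes. With Chd8 siRNA these were 4 higher and 1 lower, beside 9.07%. The median log2 fold changes were 0.00 and 0.01, beside −0.02 and −0.02 over all genes. The 16 effectors and the 11 genes of GATOR1, GATOR2, and KICSTOR, which relay amino acid levels to mTOR complex 1, were all tested, as were 8 of 9 Rag and Ragulator genes, 8 of 9 nutrient sensors, 14 of 15 upstream kinases and regulators, and 5 of 6 further subunits of mTOR complex 2 and assembly factors. The log2 fold change was positive for 7 of the 11 GATOR and KICSTOR genes with either knockdown (median 0.15 with Tsc2 siRNA and 0.11 with Chd8 siRNA). It was positive for 8 of the 16 effectors with Tsc2 siRNA and 11 with Chd8 siRNA (medians 0.01 and 0.07), while 47.6% and 47.8% of all genes were positive. The lists of Rag and Ragulator genes, nutrient sensors, and upstream kinases had 4 of 8, 4 of 8, and 7 of 14 positive with Tsc2 siRNA (medians 0.02, −0.02, and 0.01). The list of mTOR complex 2 subunits and assembly factors had 2 of 5 (median −0.07). With Chd8 siRNA these were 3 of 8, 2 of 8, 7 of 14, and 2 of 5 (medians −0.05, −0.16, −0.02, and −0.30).

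Mapkap1 (Sin1), a subunit of mTOR complex 2, was the list gene with the lowest p with Tsc2 siRNA. It was at 17.7, 19.0, and 17.2 CPM with Tsc2 siRNA against 12.9, 14.8, and 10.04 with control siRNA, without overlap, and at 14.4, 20.0, and 16.6 with Chd8 siRNA. Its log2 fold change was 0.51 (SE 0.19, unadjusted p = 0.024, adjusted p = 1.00 in edgeR) with Tsc2 siRNA and 0.43 (SE 0.19, unadjusted p = 0.0506 in edgeR) with Chd8 siRNA. Rps6, the ribosomal protein phosphorylated by S6 kinase, was at 256, 251, and 280.0 CPM with Tsc2 siRNA against 206, 241, and 226 with control siRNA, and its reads may be shared with processed pseudogenes. Nprl2, a GATOR1 subunit, had a mean of 3.46 ± 0.628 CPM against 2.15 ± 0.550 (SD, n = 3). Fnip1, a partner of folliculin, had a mean of 102 ± 9.86 CPM against 119 ± 10.3 (SD, n = 3). The log2 fold changes of Rps6, Nprl2, and Fnip1 were 0.23, 0.69, and −0.23, with unadjusted p of 0.0681, 0.0708, and 0.0968 in edgeR.

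In Chd8 siRNA, the list genes with the lowest p were Eif4ebp3, Deptor, Mapkap1, and Prr5l. Eif4ebp3, a translational repressor, was at 0, 0, and 0.30 CPM with control siRNA and 0.256, 0.251, and 0.146 with Tsc2 siRNA, near the floor of 3 counts. With Chd8 siRNA it was at 0.737, 0.638, and 1.89 CPM, low but above that floor. Deptor, an inhibitory subunit of both mTOR complexes, was at 2.98, 3.19, and 2.39 CPM with Chd8 siRNA against 5.69, 5.30, and 3.13 with control siRNA, with overlap, and its log2 fold change was −0.72 (SE 0.30, unadjusted p = 0.036, adjusted p = 1.00 in edgeR). Prr5l, which binds Rictor, was at 12.7, 8.99, and 15.7 CPM against 13.6, 19.4, and 20.5, with a log2 fold change of −0.51 (SE 0.24, unadjusted p = 0.06 in edgeR). With the replicate block, the GATOR2 subunits Wdr59 and Seh1l, named after their values were seen, were below an FDR of 0.05 with Chd8 siRNA but short of the 1.5-fold change, and 1.04% of all genes were below that FDR. Wdr59 was at 71.9, 112, and 118 CPM against 62.5, 78.1, and 85.6 with control siRNA, higher in each of the 3 numbers (log2 fold change 0.40, adjusted p = 0.0477 with the block and 1.00 without it in edgeR). Seh1l was at 44.1, 76.0, and 82.1 CPM against 37.9, 55.1, and 51.8 (log2 fold change 0.45, adjusted p = 0.0495 with the block and 1.00 without it in edgeR).

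Over the 9 libraries, the genes with log2 levels most like those of Tsc2 were Sms-ps (Pearson r = 0.913), Wdr45 (0.911), Mzt2 (0.905), Pla2g4c (0.880), and Laptm4b (0.878) of 16228 genes, given as a description because the libraries share the treatment and genes with low counts take part. Only Sms-ps and Laptm4b exceeded 2 CPM on average with control siRNA, and Sms-ps is an annotated pseudogene whose reads can also come from its parent gene. None of the other 9 members was close to Tsc2 in this respect, with r between −0.44 (Rptor) and 0.24 (Rheb). The genes next to Tsc2 were read for comparison. Pkd1, which overlaps its 3′ end on the opposite strand, was at 7.94, 12.6, and 13.6 CPM with Tsc2 siRNA against 8.48, 13.9, and 15.3 with control siRNA, with a log2 fold change of −0.14 (95% interval −0.98 to 0.70). Nthl1, which starts 50 bases from the start of Tsc2 on the other strand, did not exceed 0.368 CPM in any library.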

How the data were processed

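The authors quantified reads with salmon 0.14.1 on mm10 and deposited estimated counts per transcript for 9 libraries of primary microglia, unnormalized and unpooled; which annotation release they used is not given in the sources used here. Samples were grouped by the siRNA in their titles. Counts were rounded and summed per gene with GENCODE mouse release 21; 1096 of 140948 transcripts were unmatched (0.27% of counts) and were left out of gene tests. Genes (16229 of 54119 after filterByExpr) and transcripts (41633) were tested in R 4.3.3 with edgeR 4.0.16, TMM, and the quasi-likelihood test, all 9 libraries in 1 fit with the siRNA as the only factor, and Benjamini-Hochberg adjustment; DESeq2 1.42.0 and limma 3.58.1 served as alternatives, and Python 3.11.15 (pandas 2.3.3, matplotlib 3.10.9) for the rest. The biological coefficient of variation was 0.408 for genes, 0.233 for genes with the replicate block, and 0.828 for transcripts without it. For single values, log2(normalized CPM + 0.5) was compared by exact permutation (two-sided). The fits were first run on simulated counts with known changes. These counts held no replicate effect, so that run cannot judge the choice of the block.

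Libraries with the same replicate number deviated together. Deviations from the group means correlated across genes with r between 0.338 and 0.629 in the 9 pairs with the same number, and between −0.461 and 0.0559 in the 18 other pairs. The deviations cancel out within each group. The lower r of the other pairs therefore follows from that of the same-number pairs and is not a separate comparison. The numbers come from the sample titles, which do not say what they mark. A fit with the replicate number as a block was therefore given beside the results.

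The 10 genes and the lists were chosen with earlier results of these data known. Named were all 10 genes, the Tsc2 transcripts with at least 2% of its counts, the 4 list genes with the lowest p in each knockdown, and the 5 genes most correlated with Tsc2. Sequences were read from the GENCODE transcripts. A microglial marker of the fixed list is not reported here.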

Additional observations from a re-analysis of the deposited data

How the results depend on the processing

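The counts of calls depended on how the replicates were treated. With the replicate number as a block, 63 genes were called for Tsc2 siRNA against control siRNA, 86 for Chd8 siRNA against control siRNA, and 36 for Tsc2 siRNA against Chd8 siRNA, where the fit without the block called none, and the block changed no call among the 10 genes or their transcripts but did change that of Chd8, the target of the other siRNA. DESeq2's Wald test called 4, 8, and 2 genes in the same order, and 166 and 204 transcripts in the 2 knockdowns against control siRNA. Without the count filter there were 1 and 2 genes in the 2 knockdowns against control siRNA and, for Chd8 siRNA, 3 transcripts. Leaving out libraries gave 0 to 1 transcripts for Chd8 siRNA, 1 being called without Chd8 siRNA library 1, and no gene. The cause of these differences was not tested. Leaving out a library, the other normalization, the filter of 1 CPM in 3 libraries, fits of 2 groups, and dropping the fold threshold left the gene counts at 0. Where an arm kept 2 libraries, the spread was taken from the remaining libraries.

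No member changed its call under any alternative. The log2 difference of Tsc2 in the permutation test was −0.40, −0.38 with a pseudocount of 2, −0.41 with plain CPM, and between −0.53 and −0.25 with a library left out. The direction of several differences turned, that of Tbc1d7 with Tsc2 siRNA (0.43 as reported) among them, and the cause was not tested. With protein-coding transcripts alone, the log2 fold change in Tsc2 siRNA was −0.027 for Tsc1, −0.49 for Tbc1d7, −0.00044 for Akt1s1, and 0.087 for Rps6kb1, and in Chd8 siRNA −0.19 for Tsc1 and 0.20 for Rptor. Tsc1 in Chd8 siRNA, at 0.00068 in the fit as reported, was −0.0033 with the 1 CPM filter, −3.97e-05 in the fit of 2 groups, and −0.00087 with limma-voom. Tbc1d7 in Chd8 siRNA was 0.054 with the replicate block and 0.080 with limma-voom. With the replicate block, Tsc2-217 in Tsc2 siRNA was 0.33 and Tsc2-201 in Chd8 siRNA 0.20. With 1 library left out, the log2 fold change in Tsc2 siRNA ranged from −0.10 to 0.84 for Tbc1d7, −0.18 to 0.028 for Mtor, −0.39 to 0.090 for Mlst8, −0.047 to 0.24 for Akt1s1, −0.087 to 0.049 for Rps6kb1, −0.95 to 0.65 for Tsc2-205, −1.03 to 0.30 for Tsc2-201, and −0.53 to 1.141 for Tsc2-217. In Chd8 siRNA it ranged from −0.13 to 0.12 for Tsc1, −0.69 to 0.16 for Tbc1d7, −0.13 to 0.082 for Mtor, −0.49 to 0.20 for Mlst8, −0.11 to 0.0069 for Rps6kb1, −0.11 to 0.10 for Tsc2-221, −0.046 to 1.56 for Tsc2-205, −0.70 to 0.96 for Tsc2-217, and −0.35 to 1.64 for Tsc2-218. The alternatives for Rptor-201 and Rptor-211 were added after seeing the data, and neither reversed. With 1 library left out, Rptor-201 ranged from 0.53 to 0.73 in Tsc2 siRNA and from 0.17 to 0.36 in Chd8 siRNA, and Rptor-211 from −0.74 to −0.57 and from −1.07 to −0.46. Tbc1d7 and Mlst8 had the fewest counts, and their intervals in both knockdowns included a 1.5-fold difference in either direction. The ratios of levels per length with protein-coding transcripts alone were added after seeing the data, and 2 of the 5 with control siRNA turned, Rptor to Mtor at 0.818 and Rptor to Tsc2 at 0.879.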
